A study of Mus musculus with 24 samples.

Results

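RNA levels late after spermidine, at 360, 480 and 600 min, were compared with levels early after it, at 30, 60 and 120 min, in polyamine-depleted mouse fibroblasts. The members were the arrays whose titles give these times, 9 late and 9 early, which made 18 of the 24 arrays of the series. The cells were NIH3T3, an established mouse embryonic fibroblast line, kept in 1 mM difluoromethylornithine (DFMO) for 96 h. Late and early arrays both came from cells that then received 10 µM spermidine together with 1 mM aminoguanidine, an inhibitor of the amine oxidases that break down added polyamines in serum. Each time had 3 arrays labelled as biological replicates, and whether these were separate cultures is not stated beyond that word. A replicate effect was removed before deposit, so the p-values measure the spread left between such samples after that step. With a term for each replicate number (a replicate block), 6641 genes passed the test between late and early arrays used below, against 7139 without it. The 9 arrays of a group are 3 times of 3 replicates, so a group's range includes its change with time. The other 6 arrays were 3 of DFMO-treated cells with no spermidine (0 min) and 3 at 240 min, which entered the fit but neither group. No DFMO-treated arrays of matching later times were analysed here, so a change with time after spermidine cannot be told apart from a change with time in culture.

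Spermidine is a small polycation that cells make from ornithine through putrescine, and growing cells need it for translation, among other processes. DFMO blocks ornithine decarboxylase, the first enzyme of that route, and depleted fibroblasts slow or stop dividing until a polyamine is supplied. Added spermidine is taken up, serves as the donor for hypusine on the translation factor eIF5A, and feeds back on its own synthesis through antizyme, a protein that marks ornithine decarboxylase for destruction.

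RNA was measured on Affymetrix mouse gene arrays from 200 ng of total RNA, and all values below are deposited log2 levels of 1 probe set per gene, for 19938 genes. A fold change on such arrays tends to understate the change of dim and very bright probe sets, and levels of different genes are not on 1 absolute scale. The label of the cells was checked on 10 fibroblast markers, whose mean level ran from 9.88 to 10.2 in late arrays and 9.76 to 9.92 in early arrays, with Col1a1, Col1a2, Fn1 and Vim among the bright ones. The mean levels of the macrophage, epithelial, adipocyte and muscle marker lists lay between 4.05 and 4.47 on every late and early array, near the median probe set of an array. Defining markers such as Ptprc, Epcam, Adipoq and Myod1 stayed between 3.73 and 4.09 in the late and early means, but Krt14 (7.69 to 8.08 late and 7.41 to 7.93 early), Lyz2 (7.01 to 7.63 late and 7.20 to 7.62 early) and Lpl (6.84 to 7.31 late and 7.05 to 7.34 early) lay far above the median probe set. Of the 10 macrophage, 10 epithelial, 9 adipocyte and 10 muscle markers, Cd14 (0.22 ± 0.07) and Krt14 (0.35 ± 0.08) rose, and Cdh1 (-0.33 ± 0.04), Lpl (-0.14 ± 0.05), Acta1 (-0.32 ± 0.06) and Des (-0.19 ± 0.05) fell. In a culture measured in bulk, fewer cells of a kind and less RNA per cell cannot be told apart.

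One early array stood apart. On the first principal component, which held 63.1% of the variance, the array labelled 120 min replicate 3 lay at 2.61, while the other arrays of that time lay at -12.2 and -12.2. The array labelled 240 min replicate 3 lay at -13.2, against 2.07 and 1.49 for its replicates, so each lay near the arrays of the other time. The labels were kept. The first of these arrays belongs to the early group, and for many genes below it was the early array nearest to the late ones. Results were also computed without both arrays. Of the 181 genes named by rule, 180 kept their direction and their call without them, and Lpl lost its call (-0.14, adjusted p = 0.065).

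The late and early arrays differed in a large share of genes. By limma's moderated test with Benjamini-Hochberg adjustment over all 19938 genes, 7139 genes (35.8%) passed an adjusted p of 0.05, of which 3272 (16.4%) were higher late and 3867 (19.4%) lower late. Most of these differences were small. A difference of at least 1 on the log2 scale was found for 113 rises (0.567%) and 60 falls (0.301%), and for 135 and 68 without the 2 arrays that stood apart. The 9 late arrays all lay above the 9 early arrays for 827 genes (4.15%) and all below them for 1015 genes (5.09%). With 120 min replicate 3 left out of the early arrays these numbers were 1350 and 1527. The median difference over all genes was 0.00958, and the median standard error of a difference was 0.0327, with a 95% interval of ± 0.0684. Adjusted p-values below are from this limma fit, ± gives its standard error, and 3 values in a row for a gene are the lowest, the median and the highest of the 9 arrays of a group.

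The gene lists split in direction, as the plot of called members by list shows. Sterol synthesis had the highest median difference (1.39), followed by G1/S and DNA replication (0.853) and fatty acid synthesis (0.555). The ATF4 and amino acid response list (-0.552), p53 targets (-0.522) and immediate early genes (-0.364) had the lowest medians. Cytosolic ribosomal proteins (-0.00463) lay near the median of all genes. The lists were drawn up with earlier results of these data known, so their counts describe the lists and are no independent evidence of a direction.

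**Figure D1:**
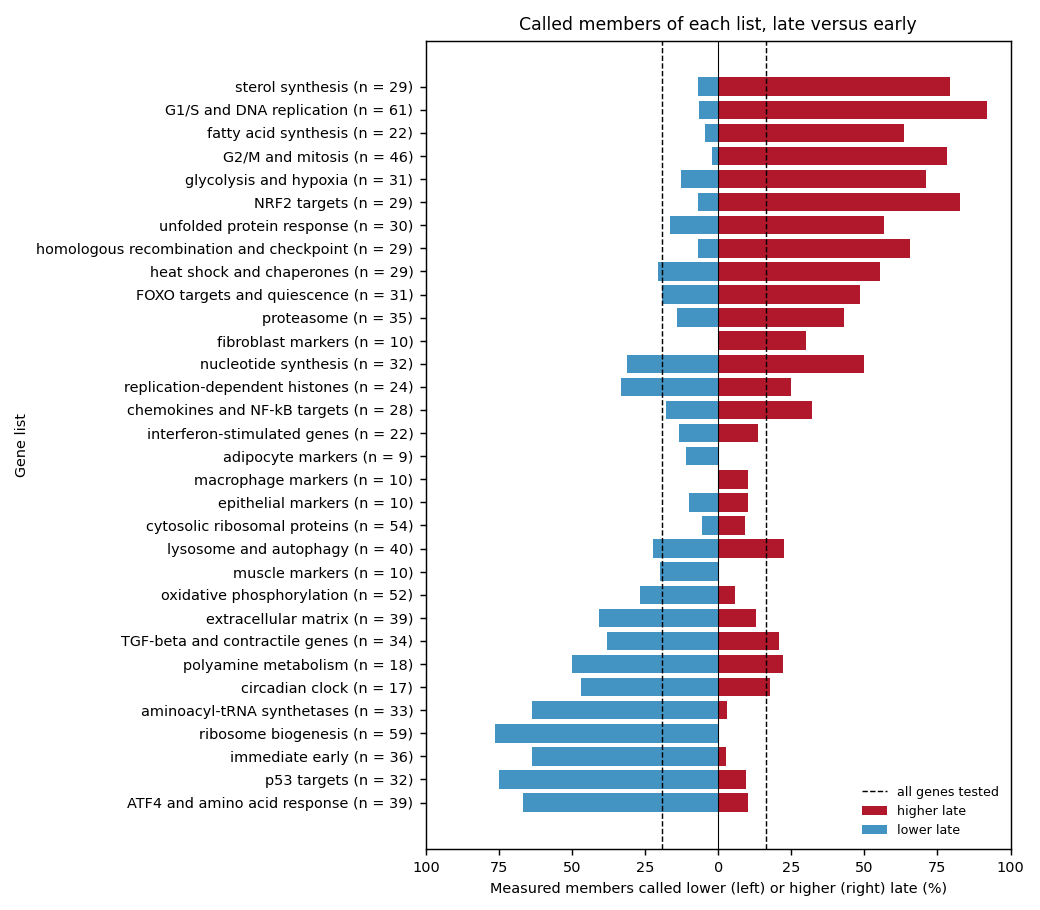
Share of the measured members of each gene list that passed an adjusted p of 0.05 in limma, higher late to the right (red) and lower late to the left (blue), in percent, with lists in the order of their median log2 difference. Dashed lines mark the shares over all genes tested, 16.4% higher and 19.4% lower, and the G1/S list reaches 91.8% higher while ribosome biogenesis reaches 76.3% lower.

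Genes of polyamine metabolism moved moderately and in both directions. Of 18 measured, 4 rose (22.2%) and 9 fell (50%), against 16.4% and 19.4% of all genes. No difference reached 1, and the median difference was -0.0833. The mean level of the list ran from 7.57 to 7.62 in late arrays and 7.62 to 7.68 in early arrays. In 3 of the genes that fell, namely Slc3a2, Azin2 and Atp13a3, and in Sat1 and Smox, which rose, the 9 late arrays did not overlap the 9 early ones. Over all genes, the late arrays all lay below the early ones in 5.09% and all above them in 4.15%.

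Among the genes of synthesis and its control, Odc1, which encodes ornithine decarboxylase, had 9.33, 9.60 and 9.94 in late arrays, against 9.81, 9.85 and 9.94 in early arrays (-0.29 ± 0.04, adjusted p = 5e-06). The groups overlapped, and the level still fell within the late group, with a difference between 600 and 360 min of -0.39 ± 0.07, adjusted p = 0.0013. Srm, spermidine synthase, fell as well (-0.23 ± 0.04, adjusted p = 7.7e-05). Azin1 and Azin2, antizyme inhibitors that shield ornithine decarboxylase from antizyme, differed by -0.41 ± 0.05 and -0.61 ± 0.05 (adjusted p = 8.5e-07 and 1.6e-08). Oaz2, an antizyme, had 5.89, 6.22 and 6.67 in late arrays and 4.88, 5.28 and 5.97 in early arrays, the largest difference of the list (0.91 ± 0.09, adjusted p = 9.3e-08). Its groups overlapped at the highest early value, that of 120 min replicate 3, and without the 2 arrays that stood apart the difference was 0.99.

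Of the catabolic genes, Sat1 and Smox rose. Sat1, the acetyltransferase that marks spermidine and spermine for export or oxidation, had 9.60, 9.83 and 9.96 late, against 9.14, 9.31 and 9.54 early (0.47 ± 0.04, adjusted p = 2.4e-08). Smox, spermine oxidase, had 4.99, 5.37 and 5.72 late and 4.61, 4.78 and 4.89 early (0.58 ± 0.06, adjusted p = 1.4e-07). Each of the 9 late values lay above the 9 early values for both genes, and both still rose between 360 and 600 min (0.31 ± 0.07, adjusted p = 0.016 for Sat1 and 0.36 ± 0.10, adjusted p = 0.047 for Smox, where the call of Smox was lost with a replicate block, adjusted p = 0.08). Sat2, a related acetyltransferase gene, fell slightly (-0.11 ± 0.04, adjusted p = 0.025).

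Slc3a2, the heavy chain of amino acid exchangers that has also been linked to polyamine transport, had 10.80, 10.97 and 11.16 in late arrays and 11.26, 11.68 and 11.78 in early arrays (-0.61 ± 0.04, adjusted p = 9.6e-11). Atp13a3, a polyamine-transporting P-type ATPase, had 9.00, 9.18 and 9.44 late and 9.45, 9.80 and 9.87 early (-0.56 ± 0.05, adjusted p = 1.1e-08). The lysosomal exporter Atp13a2 differed by -0.15 ± 0.04, adjusted p = 0.0042. For hypusine, Dhps, which carries out the first step, fell (-0.27 ± 0.04, adjusted p = 7.7e-06), while Dohh, which carries out the second, rose (0.30 ± 0.06, adjusted p = 0.00055). Eif5a itself differed by -0.06 ± 0.04, adjusted p = 0.32, which did not pass. Slc3a2 was the 1 gene of the list called at 120 against 30 min (-0.31 ± 0.06, adjusted p = 0.016), a call that was lost without the 2 arrays that stood apart (-0.23, adjusted p = 0.086), against a background of 1.25% of all genes lower and 0.206% higher in that comparison. These values by array are in the plot of polyamine genes.

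**Figure D2:**
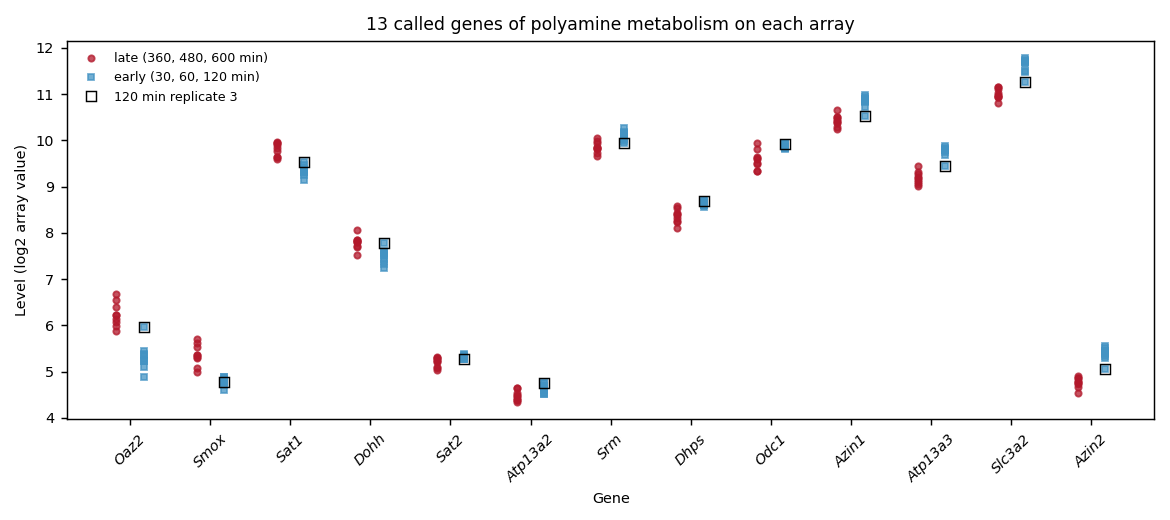
Log2 level of the 13 called genes of polyamine metabolism on each of the 9 late (red circles) and 9 early (blue squares) arrays, with genes ordered from the highest to the lowest difference and the array labelled 120 min replicate 3 outlined. Oaz2 has late values from 5.89 to 6.67 and early values from 4.88 to 5.97.

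Cholesterol synthesis genes had the highest median rise among the lists measured. Cells make cholesterol from acetyl-CoA through mevalonate and squalene, and SREBP transcription factors raise the genes of this route when sterols in the endoplasmic reticulum are low. Of 29 measured genes, 23 rose (79.3%) and 2 fell (6.9%), against 16.4% and 19.4% of all genes. Rises of 1 or more numbered 17, against 0.567% of all genes. In 20 genes the late arrays all lay above the early ones, against 4.15% of all genes. Between 360 and 600 min, 20 members rose further and 2 fell, against 2.54% and 3.43% of all genes, and the median difference within the late group was 0.945.

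In the mevalonate part, Hmgcs1, HMG-CoA synthase, had 9.99, 10.61 and 10.99 in late arrays, against 7.89, 8.23 and 9.31 in early arrays, a 4.8-fold difference (2.26 ± 0.11, adjusted p = 7e-12). Idi1, isopentenyl diphosphate isomerase, had 9.16, 10.39 and 10.99 late and 7.26, 7.62 and 8.70 early (2.50 ± 0.13, adjusted p = 1.7e-11). Mvd, mevalonate diphosphate decarboxylase, had 7.15, 8.51 and 9.32 late and 5.92, 6.04 and 6.68 early (2.15 ± 0.09, adjusted p = 1.6e-12). All late values of these genes lay above all early values, and the highest early value of each belonged to 120 min replicate 3. Pmvk, phosphomevalonate kinase, was nearly flat until 240 min and then climbed, with means of 5.10, 5.18, 5.34, 6.30 and 7.23 from 120 to 600 min. Its difference between 600 and 360 min (1.89 ± 0.13, adjusted p = 1.6e-08) was larger than its late minus early difference (1.15 ± 0.07). Fdps, farnesyl diphosphate synthase, rose by 1.94 ± 0.06, adjusted p = 5.4e-15.

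In the part from squalene to cholesterol, Nsdhl had 7.53, 8.88 and 9.72 late and 6.03, 6.19 and 6.71 early (2.46 ± 0.06, adjusted p = 7.9e-16). It encodes a sterol dehydrogenase, and its means of 7.71, 8.91 and 9.61 at 360, 480 and 600 min show that the late values were spread by time. Lss, lanosterol synthase, had 8.12, 9.47 and 10.15 late and 7.11, 7.18 and 7.45 early (2.11 ± 0.07, adjusted p = 2.8e-14). Cyp51, which demethylates lanosterol, had 9.68, 10.65 and 10.94 late and 7.93, 8.30 and 8.97 early (2.14 ± 0.08, adjusted p = 3.5e-13). No late value of these genes reached down to an early one. Hsd17b7 and Sc5d, enzymes of later steps, rose by 1.63 ± 0.05 and 1.39 ± 0.04 (adjusted p = 5.4e-15 for both).

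Insig1, the protein that holds the SREBP escort SCAP in the endoplasmic reticulum and is itself an SREBP target, had 11.05, 11.54 and 11.97 late and 8.96, 9.17 and 10.11 early (2.21 ± 0.10, adjusted p = 1.4e-12). Stard4, a carrier of cholesterol within the cell, had 8.32, 8.99 and 9.54 late and 6.48, 6.81 and 7.66 early (2.07 ± 0.10, adjusted p = 5.3e-12). Both rises were without overlap. The called falls were small and were those of Dhdds (-0.26 ± 0.04, adjusted p = 1.2e-05), which makes dolichol, and Scap (-0.11 ± 0.04, adjusted p = 0.02). The 250 bases before the RefSeq start (build GRCm38.p6) were searched on both strands for a sterol regulatory element spelled TCACNCCAC. It occurred in 1 of 24 promoters of the list, that of Hmgcs1, and in 1.20% of all 15614 genes with a promoter, and a match is a description of letters only. The E-box CACGTG, which SREBP factors can also bind, occurred in 7 of 24 promoters of the list (29.2%) and in 8.11% of all genes. That share was not particular to this list, with 33.3% in circadian clock genes and 30.3% in lysosome and autophagy genes, which did not mostly rise. Over all called genes the E-box occurred in 8.67% of those higher late and 11.6% of those lower late. The stretch at chr13:119690174-119690262 (plus strand) is shown for its match, in capitals, and was chosen after its values were seen.
Hmgcs1: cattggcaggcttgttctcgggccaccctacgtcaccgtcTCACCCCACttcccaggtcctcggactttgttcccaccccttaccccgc

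Most fatty acid synthesis genes rose as well. Of 22 measured, 14 rose (63.6%) and 1 fell (4.55%), against 16.4% and 19.4% of all genes (median 0.555). All 14 that differed between 600 and 360 min were higher at 600 min, against 2.54% of all genes. Without the 2 arrays that stood apart, 1 other was lower there. None of the 22 passed the test between 120 and 30 min, where 0.206% of all genes were higher and 1.25% lower. Fasn, fatty acid synthase, had 9.53, 10.12 and 10.73 in late arrays, against 8.44, 8.53 and 8.85 in early arrays (1.49 ± 0.06, adjusted p = 4.7e-13). Acly, which supplies cytosolic acetyl-CoA, had 9.58, 10.14 and 10.70 late and 8.84, 8.96 and 9.25 early (1.17 ± 0.05, adjusted p = 3.7e-13). The groups did not overlap for either gene. Elovl6, an elongase of long fatty acids, lay at 7.46 at 120 min, 7.31 at 240 min, 7.85 at 360 min and 9.47 at 600 min, and it rose both between the groups (1.16 ± 0.05, adjusted p = 9.9e-13) and between 360 and 600 min (1.62 ± 0.09, adjusted p = 9.8e-10). Acsl4 rose by 0.82 ± 0.03, adjusted p = 3.5e-13. The call in the other direction, which 1 more gene joined without the 2 arrays that stood apart, was Gpam, the first enzyme of triglyceride synthesis (-0.63 ± 0.05, adjusted p = 2e-09).

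Genes of the G1/S transition and of DNA replication had the highest share of rises among the lists measured. Their promoters are classical targets of E2F factors, which the retinoblastoma protein holds back until cyclin-dependent kinases release them. Of 61 measured genes, 56 rose (91.8%) and 4 fell (6.56%), against 16.4% and 19.4% of all genes, and the median difference was 0.853. Rises of 1 or more numbered 23, against 0.567% of all genes. In 36 genes the 9 late arrays lay above the 9 early ones, against 4.15% of all genes. With 120 min replicate 3 left out these were 53, against 1350 of all 19938 genes. The mean level of the list ran from 7.54 to 7.7 in late arrays and 6.58 to 7.29 in early arrays, where the top early value was that array's.

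Among licensing factors, which load the helicase at origins, Cdc6 had 6.37, 6.69 and 7.21 late, against 4.08, 4.54 and 6.23 early, a 4.29-fold difference (2.10 ± 0.17, adjusted p = 5.5e-09). Mcm6, a helicase subunit singled out after its values were seen, had 9.46, 9.84 and 10.10 late and 7.48, 7.66 and 9.02 early (1.99 ± 0.16, adjusted p = 2.9e-09). Gins1, part of the active helicase, had 6.26, 6.82 and 7.22 late and 5.02, 5.07 and 5.72 early (1.64 ± 0.09, adjusted p = 1.8e-11). For Cdc6 and Gins1 the groups were separate, although 120 min replicate 3 sat well above the other early arrays. At the fork, Pole, the catalytic subunit of the leading-strand polymerase, rose by 1.43 ± 0.08, adjusted p = 2.1e-11, and Prim2, the large primase subunit, by 0.91 ± 0.05, adjusted p = 1.8e-11.

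Chaf1b and Chaf1a, subunits of the chromatin assembly factor that deposits histones behind the fork, rose strongly. Chaf1b had 7.03, 7.43 and 7.67 in late arrays and 4.55, 4.86 and 6.22 in early arrays (2.46 ± 0.15, adjusted p = 8.9e-11), and Chaf1a differed by 1.61 ± 0.09, adjusted p = 7.4e-11. Of the 4 falls in the list, Ccnd1, the cyclin that starts the transition, had 9.63, 9.68 and 9.87 late and 9.83, 10.29 and 10.38 early (-0.55 ± 0.05, adjusted p = 2.2e-08), and its partner kinase gene Cdk6 fell with it (-0.32 ± 0.04, adjusted p = 1.2e-06). Both overlapped through 120 min replicate 3. Within the late group, 8 members were higher and 2 lower at 600 than at 360 min, against 2.54% and 3.43% of all genes. The numbers were 19 and 9 without the 2 arrays that stood apart, or 4 and 1 with a replicate block. Cdc25a, a phosphatase that activates these kinases, was the 1 member already called at 120 against 30 min (0.56 ± 0.12, adjusted p = 0.02), a call that was lost without 120 min replicate 3 alone and without any single array of 30 min, and that held without both arrays that stood apart (0.38, adjusted p = 0.013).

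E2F letters were searched as TTTCCCGC, TTTCGCGC, TTTGCCGC or TTTGGCGC on both strands of the 250 bases before the start. They occurred in 14 of 48 promoters of the list (29.2%), in 13 of the 93 promoters of genes that rose by at least 1 (14.0%), in 1 of 52 of those that fell by at least 1 (1.92%), and in 2.88% of all genes. Over all called genes they occurred in 5.08% of those higher late and 3.37% of those lower late. The list and the rises of at least 1 share genes, such as Cdc6 and Mcm6, so their shares are not separate results. The 14 genes all rose, as did 56 of the 61 measured genes of the list. Stretches of 6 of them, which were chosen after their values were seen for their role in licensing or in marking newly replicated chromatin, are shown 5′ to 3′ with the matches in capitals: Cdc6 at chr11:98907973-98908060 (plus strand), Mcm5 at chr8:75109316-75109407 (plus strand), Mcm6 at chr1:128359706-128359855 (minus strand), Mcm7 at chr5:138172001-138172088 (minus strand), Dtl at chr1:191575545-191575592 (minus strand) and Uhrf1 at chr17:56304088-56304175 (plus strand), build GRCm38.p6, from RefSeq.
Cdc6: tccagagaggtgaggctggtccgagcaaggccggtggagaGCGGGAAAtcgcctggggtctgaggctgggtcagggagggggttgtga
Mcm5: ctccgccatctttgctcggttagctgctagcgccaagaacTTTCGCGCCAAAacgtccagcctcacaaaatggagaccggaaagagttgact
Mcm6: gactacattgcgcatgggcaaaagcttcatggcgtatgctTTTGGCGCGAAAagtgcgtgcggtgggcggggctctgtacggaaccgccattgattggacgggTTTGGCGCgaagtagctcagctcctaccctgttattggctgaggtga
Mcm7: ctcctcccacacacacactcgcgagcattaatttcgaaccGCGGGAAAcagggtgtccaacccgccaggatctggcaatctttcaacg
Dtl: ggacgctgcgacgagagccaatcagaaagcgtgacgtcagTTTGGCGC
Uhrf1: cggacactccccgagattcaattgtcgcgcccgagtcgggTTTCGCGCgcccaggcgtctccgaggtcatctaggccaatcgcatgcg

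Mcm6 held 3 matches and Mcm5 held 2, of which a pair in each overlapped on opposite strands, and these genes rose by 1.99 ± 0.16 and 1.39 ± 0.10 (adjusted p = 2.9e-09 and 8.6e-10). Mcm7 rose by 1.53 ± 0.09, adjusted p = 1.1e-10. Dtl, the adaptor that destroys licensing factors in S phase, rose by 1.60 ± 0.16, adjusted p = 5e-08. Uhrf1, which reads hemimethylated DNA, rose by 1.63 ± 0.14, adjusted p = 8.2e-09.

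Homologous recombination and checkpoint genes rose in 19 of 29 (65.5%) and fell in 2 (6.9%), against 16.4% and 19.4% of all genes (median 0.222). Brca1, which directs breaks to homologous recombination, had 6.06, 6.50 and 6.60 late and 4.63, 4.81 and 5.60 early (1.52 ± 0.11, adjusted p = 5.9e-10). Rad54l, a motor protein that helps strand exchange, had 5.80, 6.55 and 7.17 late and 5.09, 5.31 and 5.56 early (1.24 ± 0.08, adjusted p = 2.2e-10). The kinase gene Chek2 rose by 1.34 ± 0.09, adjusted p = 4.6e-10, and Topbp1, an activator of the ATR kinase, by 1.18 ± 0.08, adjusted p = 6.2e-10. None of these late values overlapped the early ones. The falls were those of Hus1 (-0.29 ± 0.04, adjusted p = 2.2e-05), a clamp subunit, and Atr (-0.25 ± 0.06, adjusted p = 0.0024).

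G2/M and mitosis genes rose in 36 of 46 cases (78.3%), against 16.4% of all genes, none by 1 or more, with a median of 0.372. The 1 fall was that of Cenpa, the centromeric histone (-0.22 ± 0.05, adjusted p = 0.0011). Aurkb, a mitotic kinase, had 7.51, 7.98 and 8.30 in late arrays, against 6.83, 6.96 and 7.17 in early arrays (0.93 ± 0.06, adjusted p = 4.3e-10). Ccna2, cyclin A2, had 8.37, 8.60 and 8.79 late and 7.55, 7.87 and 8.20 early (0.70 ± 0.06, adjusted p = 5.4e-09). Late and early values of both were separate. Incenp, which joins Aurkb in the chromosomal passenger complex, and Ncaph, a condensin subunit, rose by 0.78 ± 0.05 and 0.88 ± 0.06 (adjusted p = 5.6e-10 and 6.1e-10). Within the late group 16 members were higher at 600 than at 360 min and none was lower, against 2.54% and 3.43% of all genes.

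Replication-dependent histone genes did not share 1 direction. The mRNAs of this class mostly lack a poly(A) tail and accumulate in S phase, which was not tested for each member here. Of 24 measured, 6 rose (25%) and 8 fell (33.3%), against 16.4% and 19.4% of all genes, and the median was 0.0342. The level moved within both groups. At 120 against 30 min 12 were lower, against 1.25% of all genes, or 8 with a replicate block. At 600 against 360 min 11 were higher and 1 lower, against 2.54% and 3.43% of all genes. H1f5, a linker histone, had means of 8.26 at 30 min, 7.09 at 120 min, 7.49 at 360 min and 9.20 at 600 min, with a late minus early difference of 0.95 ± 0.07, adjusted p = 6.7e-10. H4c6 rose by 0.53 ± 0.10, adjusted p = 0.00015, and was also lower at 120 than at 30 min (-0.85 ± 0.17, adjusted p = 0.012) and higher at 600 than at 360 min (1.02 ± 0.17, adjusted p = 0.0009). H1f2, another linker histone, had 5.11, 5.53 and 5.98 late and 7.08, 7.66 and 8.32 early, the largest fall among the named genes (-2.18 ± 0.15, adjusted p = 8.1e-10), and did not pass the test between 600 and 360 min (-0.14 ± 0.27, adjusted p = 0.86). The core histone genes H2bc4 and H2bc21 fell by 0.88 and 0.38 (SE 0.12 and 0.05, adjusted p = 3.1e-06 and 4.1e-06). Histone genes are near copies of each other, so a probe set may read more than its own gene.

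Nucleotide synthesis genes split in direction. Of 32, 16 rose (50%) and 10 fell (31.2%), against 16.4% and 19.4% of all genes (median 0.0596). Tk1, thymidine kinase of S phase, had 6.62, 7.53 and 8.07 late and 5.50, 5.78 and 6.17 early (1.63 ± 0.08, adjusted p = 5.6e-12) and still rose between 360 and 600 min (1.05 ± 0.14, adjusted p = 7e-05). Rrm2, the regulated subunit of ribonucleotide reductase, and Dck, deoxycytidine kinase, rose by 0.96 ± 0.08 and 0.83 ± 0.07 (adjusted p = 1.3e-08 and 1.2e-08). Nme1, a nucleoside diphosphate kinase, and Dhodh, an enzyme of pyrimidine synthesis, differed by -0.39 ± 0.02 and -0.66 ± 0.06 (adjusted p = 7.2e-11 and 2.1e-08).

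Immediate early genes, which serum and stress switch on within minutes, were lower late. Of 36 measured, 1 rose (2.78%) and 23 fell (63.9%), against 16.4% and 19.4% of all genes (median -0.364). Falls of 1 or more numbered 9, against 0.301% of all genes. The early group itself was uneven: 16 members were lower at 120 than at 30 min, against 1.25% of all genes. Without the 2 arrays that stood apart, 14 were lower there. In 2 members the late arrays all lay below the early ones, against 5.09% of all genes. With 120 min replicate 3 left out these were 10, against 1527 of all 19938 genes. Btg2, an antiproliferative gene that is also a p53 target, had 4.52, 5.34 and 5.56 late, against 5.09, 7.58 and 8.44 early (-1.87 ± 0.19, adjusted p = 1.2e-07). Egr1, a zinc finger transcription factor, had 3.77, 4.12 and 4.41 late and 4.10, 6.39 and 7.37 early (-1.70 ± 0.18, adjusted p = 2.3e-07). Ccn1, a secreted matrix protein, had 7.91, 8.39 and 8.71 late and 8.32, 10.62 and 11.11 early (-1.66 ± 0.13, adjusted p = 2.1e-09). The groups overlapped for all of these, with 120 min arrays in or near the late range.

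The means show the course: Egr1 lay at 4.43, 6.46, 6.77, 4.20 and 4.11 at 0, 30, 60, 120 and 600 min, and Ccn1 at 9.44, 10.62, 10.85, 8.58 and 8.61. Differences between 120 and 30 min were -2.37 ± 0.34, adjusted p = 0.0008 for Btg2, -2.26 ± 0.32, adjusted p = 0.0008 for Egr1 and -2.04 ± 0.22, adjusted p = 5.2e-05 for Ccn1. Ier5 (-1.04 ± 0.08, adjusted p = 3.4e-09) and Klf6 (-0.72 ± 0.06, adjusted p = 2.9e-09) fell without overlap, and Ptgs2, the inducible cyclooxygenase, fell by 1.18 (SE 0.09, adjusted p = 1.8e-09). The 1 rise, or 1 of 2 without the 2 arrays that stood apart, was that of Dusp1, a phosphatase of MAP kinases (0.24 ± 0.05, adjusted p = 0.00052).

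Targets of p53 fell in 24 of 32 (75%) and rose in 3 (9.38%), against 19.4% and 16.4% of all genes (median -0.522). In 9 genes all late arrays lay below the early ones, against 5.09% of all genes. With 120 min replicate 3 left out these were 20, against 1527 of all 19938 genes. Eda2r, a receptor of the TNF receptor family, had 7.32, 8.09 and 8.24 late and 8.78, 9.65 and 9.88 early, 3.13-fold lower late (-1.65 ± 0.12, adjusted p = 1.4e-09). Plk2, a kinase of the polo family, had 9.12, 9.25 and 9.41 late and 9.39, 10.80 and 10.93 early (-1.19 ± 0.07, adjusted p = 5.3e-11), and was already lower at 120 than at 30 min (-1.13 ± 0.12, adjusted p = 4.8e-05). Eda2r values were separate between the groups, and Plk2 values overlapped. Ei24 and Dcxr fell by 0.55 and 0.78 (SE 0.03 and 0.05, adjusted p = 9.6e-11 and 3.1e-10). Against the majority, Sesn1, a sestrin that restrains mTORC1 and is also raised by FOXO factors, had 8.62, 9.03 and 9.30 late and 6.87, 7.06 and 7.95 early (1.89 ± 0.12, adjusted p = 2.3e-10), without overlap. Ckap2 also rose (0.19 ± 0.05, adjusted p = 0.0027).

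Targets of the transcription factor ATF4 were listed with other amino acid response genes. Cells raise these when an amino acid is short or eIF2 is phosphorylated. Of 39, 26 fell (66.7%) and 4 rose (10.3%), against 19.4% and 16.4% of all genes (median -0.552). Late arrays all lay below early ones in 12 genes, against 5.09% of all genes. With 120 min replicate 3 left out these were 22, against 1527 of all 19938 genes. Slc7a5, the light chain that pairs with Slc3a2 to import large neutral amino acids, had 9.09, 9.51 and 10.13 in late arrays, against 10.16, 10.65 and 10.88 in early arrays (-1.02 ± 0.06, adjusted p = 3.4e-11). Nupr1, a small stress-induced nuclear protein, had 6.98, 7.54 and 7.84 late and 8.43, 8.78 and 8.90 early (-1.16 ± 0.09, adjusted p = 5.1e-09). Ddit3, the factor CHOP, had 5.68, 6.41 and 6.98 late and 7.00, 7.55 and 7.88 early (-1.14 ± 0.09, adjusted p = 4e-09). Late and early values of all of these were separate. Slc7a5 and Ddit3 were also among the largest falls between 360 and 600 min (-0.94 ± 0.10, adjusted p = 4.5e-06 and -0.90 ± 0.16, adjusted p = 0.0014).

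Atf5, a related transcription factor, and Asns, asparagine synthetase, fell by 0.97 and 0.58 (SE 0.06 and 0.03, adjusted p = 9e-11 and 4.5e-11). Ero1a and Slc38a2 rose (0.27 ± 0.04, adjusted p = 7.3e-06 and 0.16 ± 0.04, adjusted p = 0.005). An amino acid response element spelled TGATGNAA occurred in 8 of 34 promoters of the list (23.5%) and in 3.14% of all genes. Of the 8 genes, 5 fell, 1 rose and 2 were not called. The matches are in capitals for Chac1 at chr2:119351009-119351096 (plus strand), Nupr1 at chr7:126625533-126625620 (minus strand), Asns at chr6:7693210-7693272 (minus strand) and Slc7a11 at chr3:50443614-50443719 (minus strand), chosen after their values were seen because each fell.
Chac1: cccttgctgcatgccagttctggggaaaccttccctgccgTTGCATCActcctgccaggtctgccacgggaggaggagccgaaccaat
Nupr1: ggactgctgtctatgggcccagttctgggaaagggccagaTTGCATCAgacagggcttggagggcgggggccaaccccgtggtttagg
Asns: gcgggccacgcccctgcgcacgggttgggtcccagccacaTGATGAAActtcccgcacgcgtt
Slc7a11: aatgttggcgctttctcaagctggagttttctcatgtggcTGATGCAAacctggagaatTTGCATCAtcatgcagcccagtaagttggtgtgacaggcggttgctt

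Chac1, which breaks down glutathione, fell by 1.15 (SE 0.11, adjusted p = 5.6e-08), and Slc7a11, the cystine importer, by 0.63 (SE 0.09, adjusted p = 1.7e-05).

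The called genes of ribosome assembly all fell, with differences in the list from -0.926 to 0.0711. Of 59 ribosome biogenesis genes, 45 fell (76.3%) and none rose, against 19.4% and 16.4% of all genes. The median was -0.252, and no fall reached 1. Late arrays all lay below early arrays in 21 genes, against 5.09% of all genes. At 600 against 360 min 17 were lower still, against 3.43% of all genes, or 11 with a replicate block. Rrp12 had 7.50, 7.71 and 8.01 late, against 8.29, 8.77 and 8.88 early (-0.93 ± 0.06, adjusted p = 3.1e-10). Noc3l had 7.93, 8.02 and 8.27 late and 8.56, 8.78 and 8.88 early (-0.68 ± 0.04, adjusted p = 2.2e-10). Both act in ribosomal RNA processing or export of the subunits, and neither overlapped between the groups. Gnl3, nucleostemin, and Bop1, a factor of the large subunit, fell by 0.51 and 0.52 (SE 0.03 and 0.04, adjusted p = 3.8e-10 and 1e-09).

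The ribosomal proteins themselves differed little. Of 54 measured, 5 rose and 3 fell, or 9.26% and 5.56%, against 16.4% and 19.4% of all genes. The differences lay between -0.213 and 0.112. Rpl22 (-0.18 ± 0.04, adjusted p = 0.00044) was called with the smallest p, and the other calls named by the rule were Rps2 (0.07 ± 0.02), Rplp2 (-0.12 ± 0.04), Rpl28 (0.07 ± 0.02) and Rps18 (0.08 ± 0.02). These genes have many processed copies in the genome, so a probe set may read more than 1 of them. Aminoacyl-tRNA synthetases, which charge tRNAs, fell in 21 of 33 (63.6%) and rose in 1 (3.03%), with a median of -0.173. Between 360 and 600 min 10 fell further, against 3.43% of all genes. Cars, the cysteine enzyme, had 7.92, 8.21 and 8.41 late and 8.79, 9.22 and 9.38 early (-1.01 ± 0.06, adjusted p = 1.2e-10). Yars, the tyrosine enzyme, had 8.77, 9.14 and 9.26 late and 9.69, 10.06 and 10.29 early (-0.95 ± 0.06, adjusted p = 3e-10). The groups were apart for both. Tars and Lars fell by 0.69 and 0.71 (SE 0.04 and 0.05, adjusted p = 1.4e-10 and 5.8e-10), and Qars was the 1 rise (0.16 ± 0.04, adjusted p = 0.0033).

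Stress and protein quality lists had more rises than falls. NRF2 targets, which defend against oxidants, rose in 24 of 29 (82.8%) and fell in 2 (6.9%), with a median of 0.292. The shares of all genes were 16.4% and 19.4%. Nqo1, a quinone reductase, had 8.32, 8.77 and 9.03 in late arrays, against 6.32, 6.54 and 7.90 in early arrays (2.03 ± 0.15, adjusted p = 1.1e-09), without overlap. Me1, Pgd and Gsta4 rose by 1.05 ± 0.06, 0.86 ± 0.06 and 0.85 ± 0.07 (adjusted p = 1.2e-10, 3.1e-10 and 3.9e-09). Hmox1, heme oxygenase, went the other way and swung within the series: its means were 8.81 at 30 min, 9.19 at 120 min, 9.46 at 240 min, 9.13 at 360 min and 8.02 at 600 min (-0.38 ± 0.09, adjusted p = 0.002). At 120 min its top value was that of 120 min replicate 3.

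Unfolded protein response genes rose in 17 of 30 and fell in 5 (median 0.245). The share of falls was 16.7% in this list, 20.7% in heat shock and chaperone genes and 14.3% in proteasome genes, against 19.4% of all genes. The shares of rises were 56.7%, 55.2% and 42.9%, against 16.4%. Dnajc3, a chaperone of the endoplasmic reticulum, had 10.38, 10.58 and 10.67 late and 9.72, 9.78 and 10.24 early (0.72 ± 0.07, adjusted p = 2.1e-08). Calr, calreticulin, and Pdia6, a disulfide isomerase, rose by 0.61 ± 0.06 and 0.40 ± 0.04 (adjusted p = 2.5e-08 and 2.5e-08), Derl1, which serves export of misfolded proteins, differed by -0.24 ± 0.04, adjusted p = 0.00012, whereas the sensor gene Atf6 had 7.63, 7.84 and 7.98 late and 8.39, 8.67 and 8.77 early (-0.82 ± 0.05, adjusted p = 7.4e-11). Late and early values of Dnajc3 and of Atf6 did not overlap. Heat shock and chaperone genes rose in 16 of 29 and fell in 6 (median 0.109), with Hspa4l (1.48 ± 0.10, adjusted p = 3.2e-10), Hsph1 (0.92 ± 0.08, adjusted p = 6.5e-09) and Fkbp4 (0.67 ± 0.05, adjusted p = 2.1e-09) in the lead and the mitochondrial chaperone gene Hspa9 (-0.33 ± 0.03, adjusted p = 9e-09) and the cochaperone gene Dnaja2 (-0.29 ± 0.03, adjusted p = 2.4e-08) among the falls. Proteasome genes rose in 15 of 35 and fell in 5, or 3 without the 2 arrays that stood apart (median 0.0866). Psmd1 and Psme4 rose by 0.62 ± 0.03 and 0.62 ± 0.05 (adjusted p = 2.4e-11 and 4.5e-09), Psmd7 and Psmd8, of the regulatory particle, differed by 0.35 ± 0.02 and -0.27 ± 0.03, and the assembly chaperone gene Psmg1 fell by 0.50 (SE 0.04, adjusted p = 7.4e-09).

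Of 40 lysosome and autophagy genes, 9 rose and 9 fell, or 22.5% each, near the 16.4% and 19.4% of all genes (median -0.0054). Sqstm1, the autophagy adaptor p62, had 11.32, 11.42 and 11.62 late and 11.91, 12.13 and 12.20 early (-0.64 ± 0.03, adjusted p = 2.6e-12), without overlap. Atg12 and Atg7, of the conjugation systems, fell by 0.58 and 0.28 (SE 0.04 and 0.03, adjusted p = 8e-10 and 9e-08), while Uvrag rose (0.48 ± 0.03, adjusted p = 6.2e-10).

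Glycolysis and hypoxia genes rose in 22 of 31 (71%) and fell in 4 (12.9%), against 16.4% and 19.4% of all genes (median 0.353). Between 360 and 600 min 10 rose further, against 2.54% of all genes, or 17 without the 2 arrays that stood apart. Pfkl, the liver-type phosphofructokinase, had 8.76, 9.30 and 9.80 late, against 6.97, 7.13 and 8.03 early (2.06 ± 0.11, adjusted p = 1.7e-11). Bnip3, a mitochondrial protein that hypoxia raises, had 8.24, 8.71 and 9.26 late and 6.18, 6.60 and 8.05 early (1.99 ± 0.15, adjusted p = 2e-09). Pdk1, a kinase that inhibits pyruvate dehydrogenase, had 5.98, 6.60 and 7.11 late and 4.98, 5.11 and 5.64 early (1.42 ± 0.08, adjusted p = 3.9e-11). No late value of these 3 genes fell within the early range. Hk2 and Pfkfb3 fell (-0.53 ± 0.07, adjusted p = 7e-06 and -0.17 ± 0.03, adjusted p = 0.00031). Pfkm, the muscle-type phosphofructokinase, rose as well (0.66 ± 0.05, adjusted p = 8.7e-10). Oxidative phosphorylation genes differed little. Of 52, 3 rose (5.77%) and 14 fell (26.9%), against 16.4% and 19.4% of all genes. The median was -0.029, with differences from -0.284 to 0.156. The named calls were Ndufb3 (-0.28 ± 0.04, adjusted p = 1.8e-05), Ndufs1 (-0.15 ± 0.03, adjusted p = 6.9e-05), Uqcrc2 (-0.19 ± 0.03, adjusted p = 4.3e-05), Atp5pb (0.16 ± 0.04, adjusted p = 0.0077) and Cyc1 (0.14 ± 0.02, adjusted p = 7.9e-05).

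FOXO targets and quiescence genes rose in 15 of 31 (48.4%) and fell in 6 (19.4%), against 16.4% and 19.4% of all genes (median 0.0901). Besides Sesn1, Mxi1, a Myc antagonist, rose by 0.85 ± 0.06, adjusted p = 1.2e-09, Trib2 by 0.71 ± 0.05, adjusted p = 7.3e-10 and Sesn3 by 0.59 ± 0.05, adjusted p = 1.5e-08. Txnip and Gadd45g fell (-0.58 ± 0.09, adjusted p = 1.4e-05 and -0.60 ± 0.10, adjusted p = 6.3e-05), and both were already lower at 120 than at 30 min. Of 17 circadian clock genes, 3 rose (17.6%) and 8 fell (47.1%), with a median of -0.104. Nr1d1, the repressor REV-ERB alpha, had 6.39, 6.96 and 7.19 late and 7.01, 8.50 and 8.76 early (-1.52 ± 0.16, adjusted p = 1.1e-07), and the groups overlapped at 120 min replicate 3, its lowest early value. Bhlhe40 and Nfil3, repressors tied to the clock, differed by 0.55 ± 0.06 and -0.45 ± 0.08 (adjusted p = 1.2e-07 and 7.5e-05), Bhlhe41 by -0.40 ± 0.04 and Rora, an activator of the clock, by 0.09 ± 0.03.

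Genes of the fibroblast's surroundings gave mixed counts. Shares higher and lower were 20.6% and 38.2% for TGF-beta and contractile genes and 32.1% and 17.9% for chemokines and NF-kB targets. They were 12.8% and 41% for extracellular matrix genes and 13.6% each for interferon-stimulated genes. Over all genes these shares were 16.4% and 19.4%. Extracellular matrix genes fell in 16 of 39 and rose in 5 (median -0.0315), with Thbs1, thrombospondin 1 (-0.71 ± 0.09, adjusted p = 1.7e-06), Col5a2 (-0.62 ± 0.05, adjusted p = 8e-09) and Timp1 (-0.39 ± 0.04, adjusted p = 8e-08) and Col8a1 (-0.46 ± 0.05, adjusted p = 4.9e-07) among the falls, and Eln, elastin (0.67 ± 0.16, adjusted p = 0.0016), and the proteoglycan gene Vcan (0.15 ± 0.03, adjusted p = 0.00097) among the rises. Of 34 TGF-beta and contractile genes, 7 rose and 13 fell (median -0.054), where Tgfbi, an adhesion protein, rose by 1.17 ± 0.10, adjusted p = 1.1e-08, Tgfb1, the ligand, rose by 0.38 ± 0.04, adjusted p = 7.7e-08, the contractile genes Tpm1 and Cnn2 differed by -0.41 ± 0.03 and -0.42 ± 0.04, and Fst, an activin antagonist, had 4.09, 4.64 and 4.73 late and 5.17, 6.15 and 6.36 early (-1.49 ± 0.17, adjusted p = 3.4e-07). Fst values were separate between the groups. Of 28 chemokines and NF-kB targets, 9 rose and 5 fell, with Cxcl5, a neutrophil chemokine, at 8.14, 8.73 and 8.92 late and 6.03, 6.50 and 7.43 early (2.17 ± 0.15, adjusted p = 4.4e-10), again without overlap. Ccl2, a monocyte chemokine, rose by 0.98 ± 0.07, adjusted p = 7.5e-10, Ptges, which makes prostaglandin E, by 0.97 ± 0.06, adjusted p = 1.5e-10, and Vcam1, an adhesion receptor, fell by 0.78 (SE 0.08, adjusted p = 5.3e-08). Interferon-stimulated genes were called in 3 rises and 3 falls of 22 (median 0.0219), and in 1 rise without the 2 arrays that stood apart or with a replicate block, with Tap1, a peptide transporter (-1.10 ± 0.10, adjusted p = 1.3e-08), Stat2, a transcription factor of the pathway (0.69 ± 0.09, adjusted p = 4.4e-06), Ifi35 (-0.16 ± 0.04, adjusted p = 0.0031) and Bst2 (-0.14 ± 0.04, adjusted p = 0.015) among those named by the rule. Among fibroblast markers, Pdgfra, a platelet-derived growth factor receptor, had 7.86, 8.10 and 8.38 late and 6.22, 6.44 and 7.32 early (1.55 ± 0.10, adjusted p = 2.1e-10) with separate groups, and Pdgfrb (0.49 ± 0.08, adjusted p = 2.2e-05) and Vim (0.09 ± 0.02, adjusted p = 0.00044) rose too.

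The 12 largest rises and the 12 largest falls whose groups did not overlap are shown by array in the plot of the largest changes. Of the rises, 8 were sterol genes (Idi1, Nsdhl, Hmgcs1, Insig1, Mvd, Cyp51, Lss and Stard4) and 2, Chaf1b and Cdc6, were replication genes. The largest rise, Ranbp3l, which encodes a protein related to the nuclear export cofactor RanBP3, had 7.14, 8.31 and 9.62 late and 5.07, 5.61 and 6.02 early, a 6.18-fold difference (2.63 ± 0.19, adjusted p = 1.3e-09). It belonged to no list, and its replicates varied, with SDs of up to 0.79 at 1 time (240 min).

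After H1f2, the second fall was Cd80, a costimulatory ligand of antigen-presenting cells, at 4.69, 4.86 and 5.59 late and 5.73, 7.01 and 7.19 early (-1.86 ± 0.14, adjusted p = 2.3e-09). Epha4, an ephrin receptor, had 4.70, 4.87 and 5.24 late and 5.40, 6.25 and 6.69 early (-1.33 ± 0.13, adjusted p = 7.5e-08). Zfr, a zinc finger protein that binds RNA, had 8.28, 8.64 and 9.23 late and 9.67, 10.04 and 10.17 early (-1.27 ± 0.05, adjusted p = 4e-13). Zfr was among the falls that went on within the late group (-0.74 ± 0.09, adjusted p = 2.6e-05), whereas Cd80 and Epha4 did not pass that test (0.08 ± 0.25, adjusted p = 0.92 and -0.11 ± 0.23, adjusted p = 0.87). Rin1, Tcta, Ifrd1, Chchd5 and Nsun3 differed by -1.31 ± 0.08, -1.29 ± 0.08, -1.28 ± 0.09, -1.27 ± 0.06 and -1.18 ± 0.08 (adjusted p between 9.2e-12 and 9.3e-10).

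**Figure D3:**
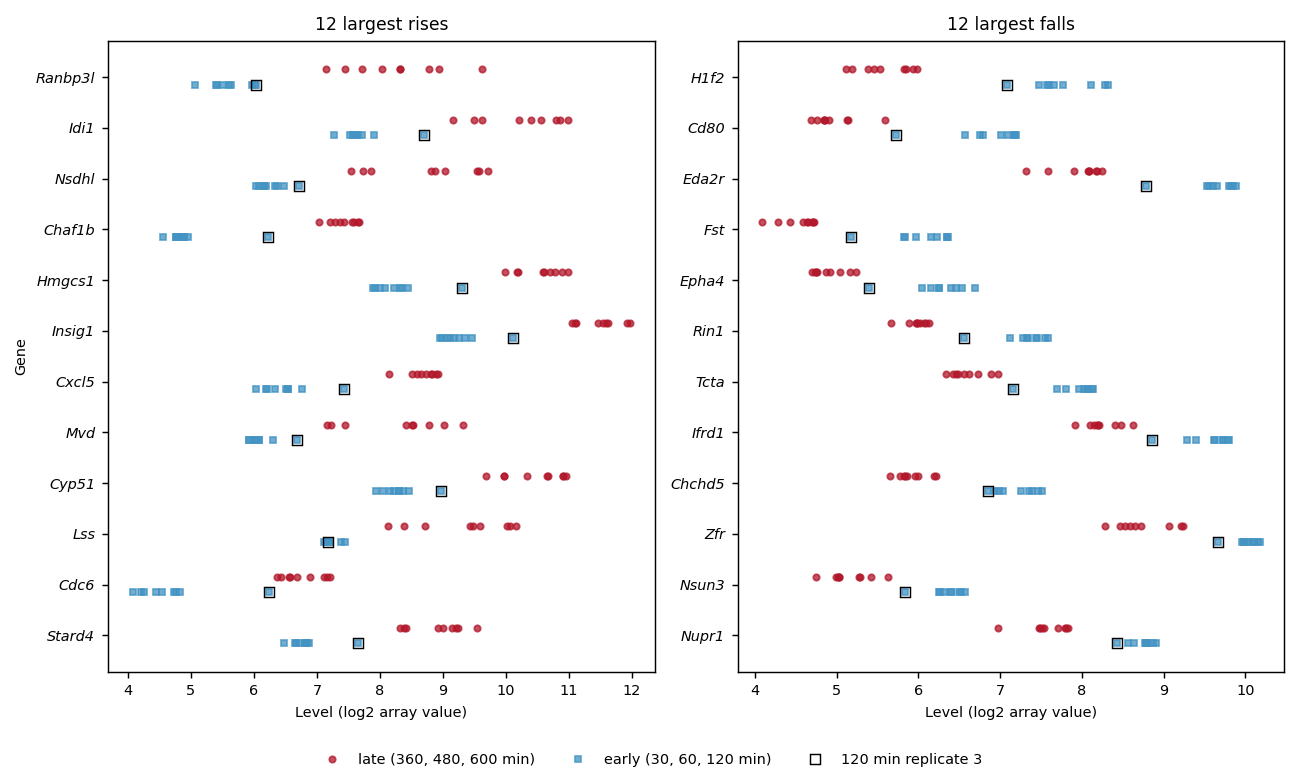
Log2 level on each of the 9 late (red circles) and 9 early (blue squares) arrays for the 12 largest rises (left) and the 12 largest falls (right), with the array labelled 120 min replicate 3 outlined. For most of these genes the outlined array is the early one nearest to the late arrays, as for Chaf1b at 6.22 with late values from 7.03 up.

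The course in time varied between genes. The 0 min mean lay nearer the early than the late mean in 113 of 113 rises of at least 1 and in 58 of 60 falls. At 240 min, which belongs to neither group, the rises had covered a median of 0.195 of the way from the early to the late mean, and 104 of 113 lay between 0 and 0.5. The falls had covered 0.480, with 32 of 60 between 0 and 0.5 and 26 between 0.5 and 1. Without the 2 arrays that stood apart these medians were 0.345 for rises and 0.645 for falls. By list, over genes with a called difference of at least 1 and with the value without these arrays, an alternative chosen after seeing the data, in brackets, the median was 0.00757 (0.172) in 7 repair and checkpoint genes, 0.122 (0.222) in 5 fatty acid genes, 0.147 (0.241) in 17 sterol genes and 0.246 (0.382) in 23 G1/S genes. It was 0.475 (0.817) in 9 genes of the ATF4 list, 0.668 (0.803) in 10 p53 targets and 0.803 (1.02) in 9 immediate early genes.

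**Figure D4:**
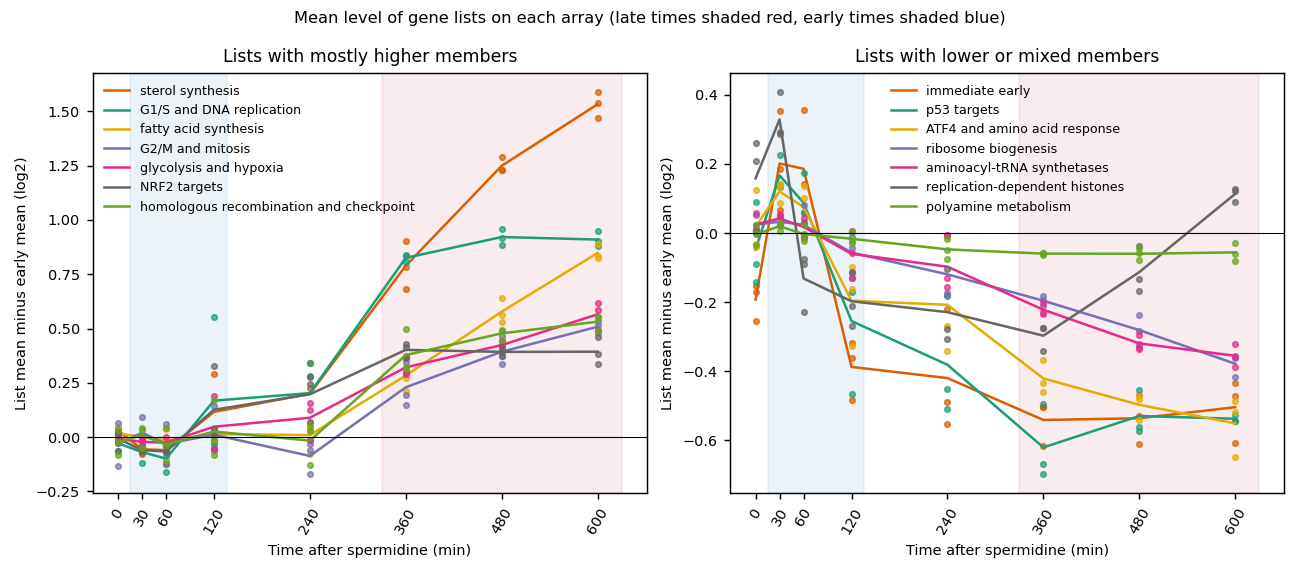
Mean log2 level of the members of each list on each array (points) and the mean per time (lines), minus the mean over 30, 60 and 120 min, against time after spermidine in min, with the late times shaded red and the early times blue. The sterol, fatty acid and mitosis lists climb through the late times, the G1/S list levels off after 360 min, the immediate early list drops between 60 and 120 min, and the histone list falls early and climbs again after 360 min.

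Within the late group, 1190 genes differed between 600 and 360 min in limma, 506 higher (2.54%) and 684 lower (3.43%). Without the 2 arrays that stood apart, which are at neither of these times but enter the estimate of the spread, the numbers were 671 and 931. With a replicate block they were 362 and 462. Of the 113 rises of at least 1, 50 were still rising, or 46 with a replicate block, and none was falling. Of the 60 falls 8 were still falling, or 5 with a replicate block, and none was rising. Without these arrays the rises counted 71 higher and 3 lower at 600 min, and the falls 14 lower and 2 higher. Within the early group, 290 genes differed between 120 and 30 min, 41 higher (0.206%) and 249 lower (1.25%), and 24 and 161 without the 2 arrays. With a replicate block the numbers were 18 and 126. Of the 113 rises 1 was already higher at 120 min, and of the 60 falls 22 were already lower, against 0 and 14 with the block. The largest rises between 30 and 120 min were those of Tbrg3 (0.79 ± 0.15, adjusted p = 0.0078), Mylip (0.73 ± 0.13, adjusted p = 0.0068) and Cdc25a, and each of these calls was lost without at least 1 array. Leaving out single arrays gave as few as 637 genes for 600 against 360 min (without 600 min replicate 2) and 85 for 120 against 30 min (without 30 min replicate 2).

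**Figure D5:**
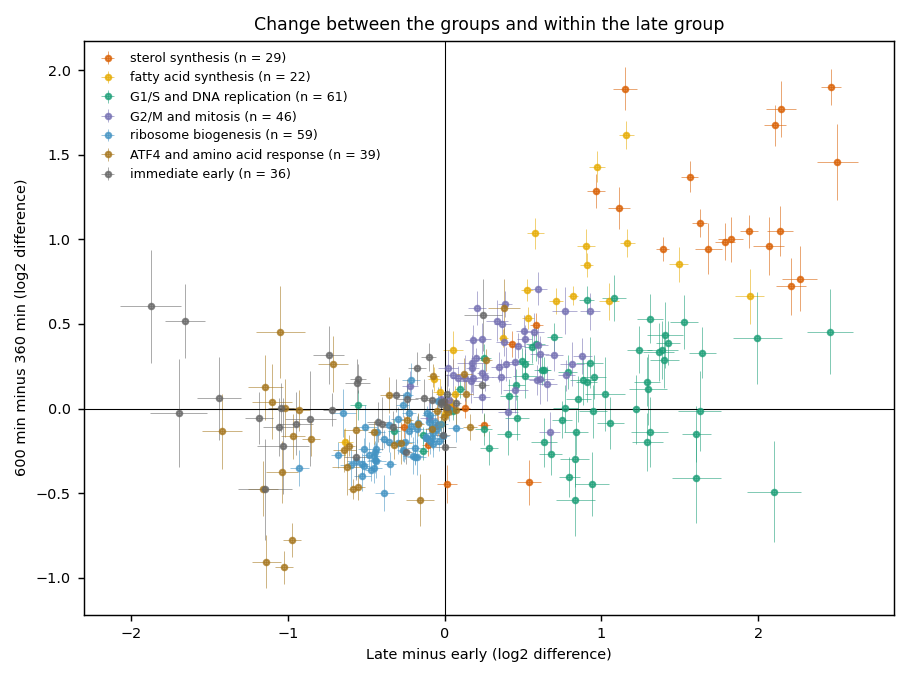
Difference between 600 and 360 min (vertical, log2) against the late minus early difference (horizontal, log2) for the members of 7 lists, with bars of 1 standard error in each direction. Sterol and fatty acid genes (orange and yellow) lie high on the right, G1/S genes (green) spread to the right around 0, ribosome biogenesis genes (blue) lie left and mostly below 0, and immediate early genes (grey) lie left around 0. Mitosis genes (purple) lie above 0 at moderate differences, and a few genes of the ATF4 list (brown) lie low on the left.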

How the data were processed

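The values are the authors' deposited log2 levels, 1 per probe set and array, made with RMA in Partek per the submitters' processing notes (versions not given in the sources used here). That they are log2 was inferred from their range. For each of 19938 genes, every replicate number had nearly the same mean over the 8 times (median gap 5e-06), so a replicate effect was removed before deposit by a step not described. Of 35399 probe sets, 21789 named 1 gene, 1621 several and 11989 none, and the probe set with the highest mean stood for each gene.

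Limma 3.58.1 in R 4.3.3 was fitted to all 24 arrays with a mean per time and no filter. Late minus early was the mean of 360, 480 and 600 min minus the mean of 30, 60 and 120 min, with a threshold of 0.05 on the adjusted p for a call. The fit was tested on simulated data. Array data give no counts, so the number of arrays limits the precision.

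Named genes were the 12 largest rises and falls without overlap, up to 4 members per list by p and 2 against its majority, all called polyamine genes, all called members of lists with 5 or fewer, and the 3 largest changes each way within a group, passing over unnamed gene models. The members and the lists were chosen with earlier results of these data known. A list of mitochondrially encoded genes had 0 members measured. Promoters are from RefSeq GRCm38.p6, matched for 15614 genes.

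Alternatives changed the arrays, times, replicate block, normalization, filter, probe set rule and prior variance.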

Additional observations from a re-analysis of the deposited data

Results flagged for a closer look

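In each group of 9 arrays, an array was picked out where its gap to the nearest other array was a larger share of the group's range than Dixon's 95% critical value for 9 samples. Of 426 groups tested, 362 of genes and 64 of lists, 65 (15.3%) passed. The critical value passes about 1 in 20 groups of independent values from 1 normal distribution. Each group here holds 3 times and the groups share arrays, so that rate is no expected rate for them. In 56 of the 65 the array was 120 min replicate 3, as the highest early array of 30 genes and 6 lists and the lowest of 20 genes. Values below are log2 levels of that array, with the range of the other 8 early arrays in brackets. Why the array stands apart was not tested.

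Among the sterol, replication and chromatin genes and those after them, it was the highest early array of Idi1 8.695 (others 7.264 to 7.905), Chaf1b 6.223 (others 4.549 to 4.949), Hmgcs1 9.307 (others 7.889 to 8.445), Insig1 10.11 (others 8.958 to 9.467), Cyp51 8.973 (others 7.935 to 8.459), Cdc6 6.233 (others 4.076 to 4.83), Stard4 7.655 (others 6.481 to 6.877), Gins1 5.725 (others 5.021 to 5.247). It was likewise highest for Pole 6.25 (others 5.438 to 5.813), Chaf1a 6.384 (others 5.163 to 5.647), Brca1 5.601 (others 4.631 to 4.933), Topbp1 8.29 (others 7.581 to 7.804), Incenp 6.498 (others 5.907 to 6.153), Sesn1 7.946 (others 6.866 to 7.192), Dnajc3 10.24 (others 9.723 to 9.89), Hspa4l 9.494 (others 8.547 to 8.974). High values were also found for Hsph1 10.4 (others 9.863 to 10.11), Me1 9.903 (others 9.417 to 9.59), Nqo1 7.897 (others 6.316 to 6.815), Gsta4 9.438 (others 8.713 to 8.962), Hmox1 9.642 (others 8.621 to 8.989), Sc5d 8.847 (others 8.6 to 8.696), Pfkl 8.034 (others 6.968 to 7.255), Pdk1 5.641 (others 4.977 to 5.204). The last of these genes were Bnip3 8.049 (others 6.185 to 6.767), Mxi1 5.926 (others 5.233 to 5.494), Sesn3 7.11 (others 6.642 to 6.843), Ptges 7.507 (others 6.854 to 7.174), Krt14 7.934 (others 7.412 to 7.631), Pdgfra 7.319 (others 6.222 to 6.683).

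It was the lowest early array of Cd80 5.732 (others 6.571 to 7.19), Eda2r 8.781 (others 9.531 to 9.88), Fst 5.173 (others 5.819 to 6.364), Epha4 5.398 (others 6.04 to 6.693), Rin1 6.556 (others 7.118 to 7.581), Tcta 7.153 (others 7.694 to 8.139), Zfr 9.666 (others 9.959 to 10.17). It was likewise lowest for Nsun3 5.842 (others 6.258 to 6.567), Atp13a3 9.448 (others 9.68 to 9.867), Ccnd1 9.832 (others 10.22 to 10.38), Cdk6 9.93 (others 10.13 to 10.3), Slc7a5 10.16 (others 10.59 to 10.88), Hspa9 11.31 (others 11.47 to 11.59), Yars 9.686 (others 9.989 to 10.29). Low values were also found for Dhdds 8.361 (others 8.582 to 8.701), Hk2 8.352 (others 8.587 to 8.808), Sqstm1 11.91 (others 12.07 to 12.2), Vcam1 6.66 (others 7.094 to 7.389), Tap1 5.653 (others 6.329 to 6.949), Nr1d1 7.008 (others 8.148 to 8.764).

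For list means it was the highest early array of G1/S and DNA replication 7.292 (others 6.578 to 6.716), unfolded protein response 8.981 (others 8.71 to 8.801), heat shock and chaperones 9.797 (others 9.667 to 9.705), NRF2 targets 8.414 (others 8.016 to 8.123), sterol synthesis 7.496 (others 7.082 to 7.244), glycolysis and hypoxia 8.11 (others 7.866 to 7.926).

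The other 9 were spread over 6 arrays. Cd80 at 480 min replicate 3, the highest of the late arrays, was 5.589 (others 4.687 to 5.143). Nupr1 at 600 min replicate 3, the lowest of the late arrays, was 6.98 (others 7.473 to 7.837). Ccnd1 at 600 min replicate 3, the highest of the late arrays, was 9.865 (others 9.629 to 9.742). Pfkfb3 at 360 min replicate 2, the highest of the late arrays, was 4.62 (others 4.479 to 4.548). Acta1 at 360 min replicate 2, the highest of the late arrays, was 5.143 (others 4.602 to 4.86). Des at 600 min replicate 1, the lowest of the late arrays, was 4.084 (others 4.271 to 4.39). Epithelial markers at 600 min replicate 1, the lowest of the late arrays, was 4.237 (others 4.308 to 4.377). Ndufs1 at 60 min replicate 3, the lowest of the early arrays, was 10.29 (others 10.4 to 10.48). Cyc1 at 60 min replicate 2, the highest of the early arrays, was 9.94 (others 9.787 to 9.844).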

How the results depend on the processing

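The count of called genes, 7139, lay between 6205 and 7422 over 34 other settings, and between 6740 and 7117 when 1 array was left out. For the 181 named genes, 6096 of 6154 alternative values kept their direction and their side of the threshold, 58 lost the call and 0 reversed. Centring each array on its median gave 38.7% of calls higher, against 45.8%, and moved the median of all genes to -0.00781. The early times set how many falls reached 1: 97 without 120 min and 34 without 30 min, against 60. Comparisons inside a group depended on single arrays, and the cause was not tested. Leaving out 1 array gave 637 to 1354 genes for 600 against 360 min (higher 314 to 582, lower 307 to 801), with the fewest without 600 min replicate 2 and 766 and 772 without 360 min replicates 1 and 2, and 85 to 339 for 120 against 30 min (higher 13 to 65, lower 72 to 274), with the fewest without 30 min replicate 2 and 163, 150 and 117 without 30 min replicate 1, 30 min replicate 3 and 120 min replicate 3. Without 120 min replicate 3 and 240 min replicate 3, 185 genes were called at 120 against 30 min (24 higher, 161 lower). In the 18 arrays alone 72 were higher there, and among genes above the median level 71. Of 52 oxidative phosphorylation genes, the 14 falls became 9 without 30 min, 5 without 600 min, 9 with quantile normalization, and 8 to 15 with 1 array left out, with the fewest without 360 min replicate 2. Genes without overlap numbered 1350 above and 1527 below without 120 min replicate 3, an alternative chosen after seeing the data. Small differences are limited by the array's narrow range for dim probe sets.

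Same-numbered arrays of the 18 had correlations of their deviations from the time means between -0.485 and 0.182, above 0.1 in 3 of 45 pairs. Since a replicate effect was removed before deposit, these correlations do not show whether the numbers pair the samples, and a fit without the block counts 16 residual degrees of freedom, against 14 with it. With a replicate block on 24 arrays 6641 genes were called (2975 higher, 3666 lower), and for 120 against 30 min 144 (18 higher, 126 lower). List counts within a group with the block were an alternative chosen after seeing the data. With the block and without the 2 arrays that stood apart, 109 were called there (12 higher, 97 lower). With the block on 18 arrays 6557 genes and 8 oxidative phosphorylation falls were called, and 8 such falls were also called with the block and without those 2 arrays.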

Other observations

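Of the 113 rises of at least 1, 47 were in none of the gene lists, as were 29 of the 60 falls, and the genes below were chosen from these after their values were seen. Nadk2, the mitochondrial NAD kinase, had 9.02, 9.24 and 9.68 late and 7.41, 7.54 and 8.31 early (1.73 ± 0.11, limma adjusted p = 3.1e-10). Aacs, which makes acetoacetyl-CoA in the cytosol, had 8.51, 9.36 and 9.74 late and 7.38, 7.52 and 7.88 early (1.65 ± 0.07, limma adjusted p = 1.6e-12). Idh1, the cytosolic isocitrate dehydrogenase, had 10.02, 10.56 and 10.96 late and 8.83, 8.86 and 9.63 early (1.48 ± 0.09, limma adjusted p = 1.5e-10). The late and early arrays were separate for all of these. Pank1, which starts coenzyme A synthesis, rose by 1.44 ± 0.08, and Lrp8, a lipoprotein receptor, by 1.43 ± 0.07. Other rises were those of Hells, a chromatin remodeller, at 1.39 ± 0.11, Ncapg2, a condensin II subunit, at 1.36 ± 0.08, Pclaf, which binds PCNA, at 1.19 ± 0.07 and Asf1b, a histone chaperone, at 1.10 ± 0.07.

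Among the falls, Ankrd1, a target of YAP, had 6.57, 6.93 and 7.44 late and 6.86, 8.72 and 9.14 early (-1.44 ± 0.16, limma adjusted p = 2.6e-07), and the groups overlapped. Edn1, endothelin 1, had 5.73, 5.92 and 6.06 late and 5.80, 7.16 and 7.93 early (-1.03 ± 0.11, limma adjusted p = 1.2e-07), also with overlap. Acot2, a mitochondrial acyl-CoA thioesterase, had 7.40, 7.57 and 8.01 late and 8.48, 8.87 and 8.97 early (-1.16 ± 0.05, limma adjusted p = 7.1e-13), without overlap. Mtrr, methionine synthase reductase, and Qtrt2, which takes part in queuosine modification of tRNA, differed by -1.01 ± 0.07 and -1.05 ± 0.10. The 343 microRNA and small nucleolar RNA genes on the array gave 20 rises (5.83%) and 37 falls (10.8%), against 16.4% and 19.4% of all genes, with a median difference of 0.0154 and a range from -0.997 to 0.457.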
